A study of Homo sapiens with 2 samples.

Results

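The RAB small GTPases were followed in the human gastric cancer cell line NUGC4 after knockdown of ANO5. The array reads a gene through a transcript cluster, a group of probes, and all clusters were taken whose gene symbol consists of RAB, a number and at most a letter and a digit. This gave 57 RAB genes of 14526 named genes, each read by 1 cluster. In the control group the cells received a negative control siRNA, and in the knockdown group an siRNA against ANO5, which encodes the membrane protein anoctamin 5. Both groups were the same cell line, were given 20 nmol/l of siRNA by reverse transfection with Lipofectamine RNAiMAX 24 h after seeding, and had no untransfected counterpart among the arrays. Each group was 1 array of total RNA, and this number limits the precision. Neither an error nor a p-value can be computed, and every difference compares these 2 RNA samples alone. A single siRNA against ANO5 was used.

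RAB proteins are molecular switches of membrane traffic. They sit on a membrane in the GTP-bound form, where they recruit effectors such as tethers and motor adaptors, and are extracted from it in the GDP-bound form. Exchange factors load them with GTP, GTPase-activating proteins end the active state, and each compartment of the secretory and endocytic routes carries its own set of RABs. In secretory epithelia, RAB3D and RAB27B are found on secretory granules, and RAB11A and RAB25 act in apical recycling.

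Values were read as log2 signal, and a difference is the ANO5 siRNA array minus the control array. As a check of the knockdown, ANO5 itself was at 6.83 with control siRNA and 3.67 with its own siRNA (-3.16). The arrays had medians of 7.69 and 7.68. All 6 epithelial markers looked up (EPCAM, CDH1, KRT8, KRT18, KRT19 and CLDN4) lay between 13.78 and 17.37 on both arrays. The measured range is taken here as a mean level of both arrays at or above the 33rd percentile of all named genes (6.05). Of 15 markers of fibroblasts, blood and endothelium, 9 were in the table and 5 of these reached that range. These 5 were COL1A2 of fibroblasts (8.03 and 7.92), VWF of endothelium (7.14 and 7.66) and LYZ, CD68 and HBA1 of blood. LYZ was the highest at 10.88 and 9.80, CD68 was at 7.66 and 7.34 and HBA1 at 6.14 and 6.30. Below the range lay, among others, PTPRC of blood cells at 3.68 and 3.49 and COL1A1 of fibroblasts at 4.58 and 4.62. A total of 10 RAB genes lay below the measured range, where signal cannot be told from background, since no detection call was used. ANO5, with a mean level of 5.25, also lay below it, so background may limit the size of its difference.

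More RAB genes were higher than lower after ANO5 knockdown. By a fixed size of 2-fold, a log2 difference of 1, 9 of 57 RAB genes (15.8%) were higher and 1 of 57 (1.75%) was lower. Of all named genes 8.33% were higher and 8.35% lower. In the measured range 8 of 47 RAB genes (17.0%) were higher, beside 11.2% of named genes, and 1 of 47 (2.13%) lower, beside 11.3%. RAB7B, 1 of these 8, lay below 6.05 with control siRNA (5.66) and entered the range through its ANO5 siRNA value (7.13). The range rests on the mean of both arrays for all named genes alike, so this count is not independent of the differences. The 9 higher genes were RAB3D, RAB3B, RAB18, RAB30, RAB11A, RAB7B, RAB6B, RAB4A and RAB43, and the lower gene was RAB8A. In bulk RNA a change in the number of cells with a transcript and a change in its amount per cell cannot be told apart. At 1.5-fold, 21 RAB genes (36.8%) were higher and 7 (12.3%) lower, beside 18.6% and 16.6% of all named genes. In the measured range these shares were 38.3% and 12.8%, beside 23.2% and 20.1% of named genes. At 3-fold, RAB3D, RAB3B, RAB18 and RAB30 were higher and 0 lower, beside 2.56% and 3.72% of all named genes. RAB18 fell short of 3-fold after loess (1.52), and RAB30, which lay below the measured range, with a pseudocount (1.04). The median RAB difference was 0.23, that of all named genes 0.03, and 39 of 57 RAB genes (68.4%) were above 0, beside 52.2% of all named genes. The SD of the differences over genes was 0.75 for RAB genes and 0.82 for all named genes, a spread between genes and not between cultures.

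**Figure D1:**
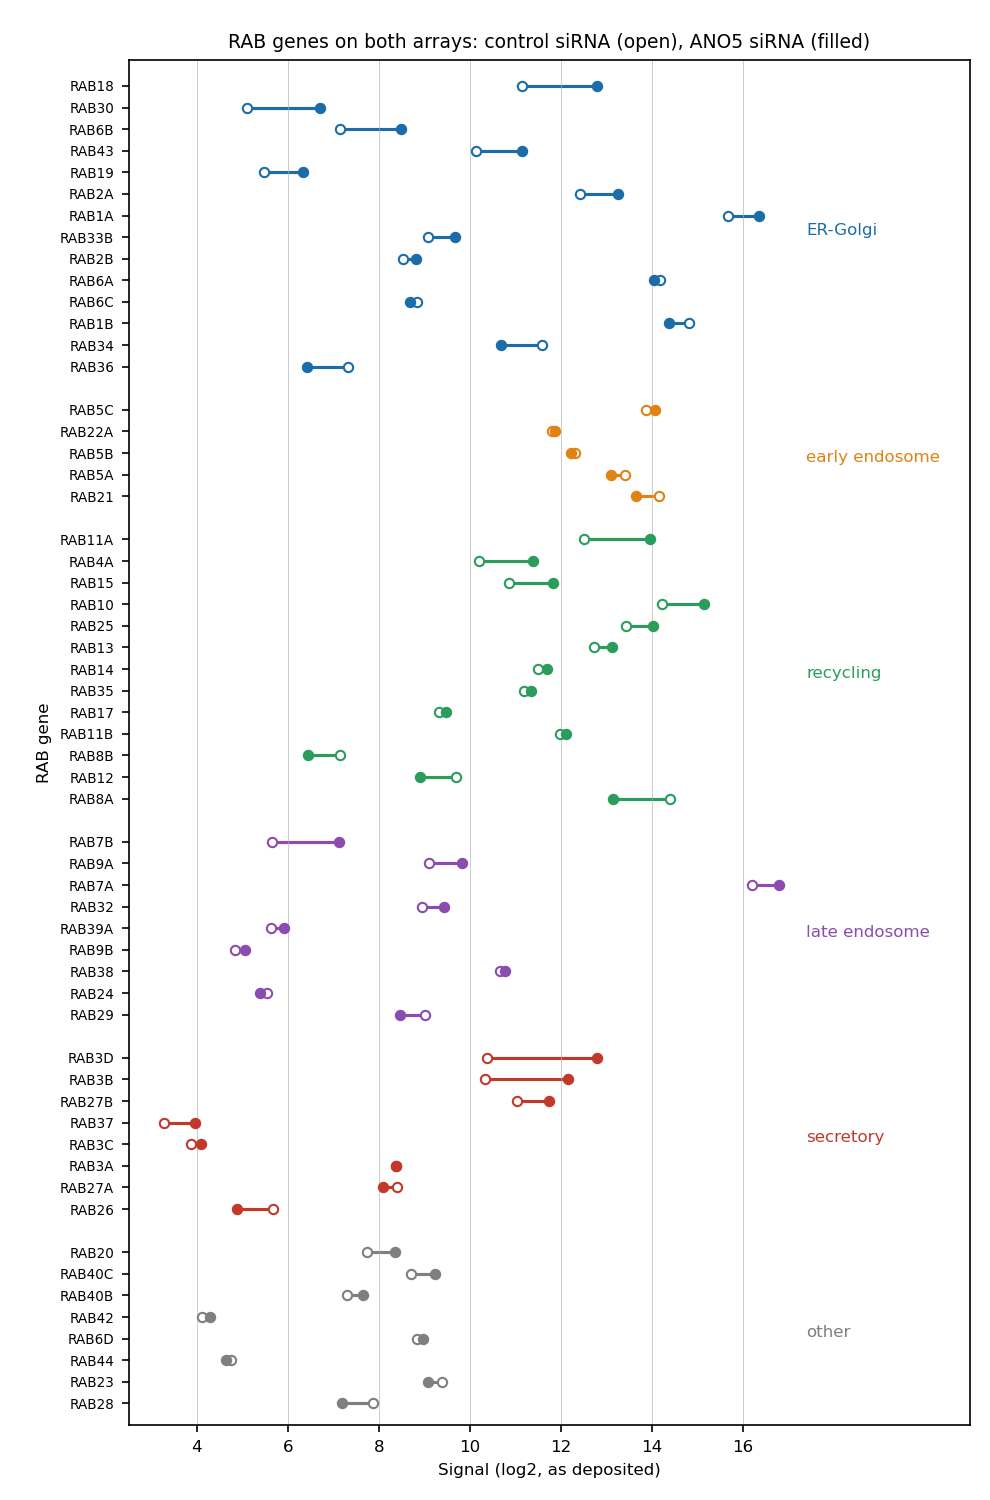
Signal (log2, as deposited) of each of the 57 RAB genes on the control siRNA array (open circle) and the ANO5 siRNA array (filled circle), grouped and coloured by compartment and ordered by difference. RAB3D has the longest line, from 10.37 to 12.80, and RAB8A the longest one to the left, from 14.39 to 13.15. Levels of different genes come from different probes and are not to be compared with each other.

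RABs of the secretory group, which serve regulated exocytosis, held the 2 largest differences of the family. RAB3D, a RAB of secretory granules in exocrine cells, was at 10.37 with control siRNA and 12.80 with ANO5 siRNA, 5.39-fold higher. Of all named genes, 0.558% had as high a difference or a higher one. RAB3B, its close relative, was at 10.33 and 12.16, 3.56-fold higher, with 1.60% of named genes at or above it. The other members of the RAB3 set did not follow them. RAB3A, known from synaptic vesicles, was at 8.37 and 8.38. RAB3C was at 3.87 and 4.10, below the measured range. The RAB27 pair, which docks secretory vesicles at the plasma membrane, was split: RAB27B differed by 0.70 (11.04 to 11.74) and RAB27A by -0.31 (8.39 to 8.08). RAB37 (3.27 and 3.96) and RAB26 (5.67 and 4.89) lay below the measured range. Of the 8 genes in this group 2 were higher and 0 lower by 2-fold, and the median difference was 0.46. Among the 5 of them in the measured range it was 0.70, and with a pseudocount over all 8 it was 0.13.

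Promoter sequence is shown for the genes with the highest differences in the family, RAB3D, RAB3B and RAB18, and for RAB8A, the lower gene. The sequences are the 250 bases before the RefSeq start (build GRCh38.p14), at chr19:11339658-11339907 on the minus strand for RAB3D, chr1:51990701-51990950 on the minus strand for RAB3B, chr10:27504054-27504303 on the plus strand for RAB18 and chr19:16111639-16111888 on the plus strand for RAB8A. Each is written 5′ to 3′ on the strand of its gene. Capitals mark the GC box, the letters GGGCGG or, on the other strand, CCGCCC.
RAB3D: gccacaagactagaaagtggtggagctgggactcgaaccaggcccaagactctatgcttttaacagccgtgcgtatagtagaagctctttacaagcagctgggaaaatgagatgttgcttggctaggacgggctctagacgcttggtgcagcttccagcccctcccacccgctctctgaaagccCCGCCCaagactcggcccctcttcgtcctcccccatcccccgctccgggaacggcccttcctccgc
RAB3B: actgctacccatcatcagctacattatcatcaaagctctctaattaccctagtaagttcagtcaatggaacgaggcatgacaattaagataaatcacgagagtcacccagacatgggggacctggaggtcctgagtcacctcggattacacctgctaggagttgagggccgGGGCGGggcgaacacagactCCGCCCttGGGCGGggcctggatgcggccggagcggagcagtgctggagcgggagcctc
RAB18: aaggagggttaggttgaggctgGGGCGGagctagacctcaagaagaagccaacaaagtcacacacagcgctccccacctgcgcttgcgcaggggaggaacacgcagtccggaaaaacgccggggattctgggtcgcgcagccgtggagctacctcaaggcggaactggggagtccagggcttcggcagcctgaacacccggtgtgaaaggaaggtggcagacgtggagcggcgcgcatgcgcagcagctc
RAB8A: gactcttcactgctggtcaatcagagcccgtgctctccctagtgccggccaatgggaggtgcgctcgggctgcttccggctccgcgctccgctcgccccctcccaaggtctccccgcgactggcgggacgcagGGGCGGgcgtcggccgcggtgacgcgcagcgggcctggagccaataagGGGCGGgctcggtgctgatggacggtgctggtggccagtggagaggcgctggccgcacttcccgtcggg

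The RAB3D window held 1 GC box, that of RAB3B 3, that of RAB18 1 and that of RAB8A 2, so that the higher genes and the lower one both had it. The first base of the RAB3D box lay 66 bases before the start, those of RAB3B between 79 and 51 bases, that of RAB18 228 bases, and those of RAB8A 117 and 69 bases. GC content of the windows was 59.6% for RAB3D, 56.8% for RAB3B, 63.6% for RAB18 and 72.4% for RAB8A. The RefSeq table had 67 windows for 46 of the 57 RAB genes. A GC box was in 73.1% of these 67, in 42.6% of all 35116 windows of that length and in 53.7% of the 22199 windows of protein-coding genes. By gene, 39 of 46 RAB genes had it in at least 1 window (84.8%), beside 46.2% of all 27305 genes of the table. Unlike the RAB genes, that set also holds genes that are not protein-coding, and the GC box share of its protein-coding genes was not counted. Of the 9 RAB genes higher by 2-fold 7 had it, a share close to that of the family. The palindromic E-box CACGTG was in 5.97% of RAB windows and 6.34% of all windows, and its 4 RAB genes were RAB4A, RAB5A, RAB21 and RAB24. The CCAAT box (CCAAT or ATTGG) was in 25.4% of RAB windows and 32% of all. These matches describe letters and not sites of binding.

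By 2-fold, 4 of the 14 RABs of the ER and Golgi, which carry cargo between these organelles, were higher (28.6%) and 0 lower. Among all named genes 8.33% were higher and 8.35% lower. The ER and Golgi group had the highest median of the 5 compartments, at 0.64. In the measured range alone it was 0.44 and lay below the medians of the secretory group (0.70) and the late endosome group (0.55). RAB18, a RAB of the ER and of lipid droplets whose promoter is printed above, was at 11.15 with control siRNA and 12.80 with ANO5 siRNA, 3.14-fold higher. RAB30, a Golgi RAB, was at 5.09 and 6.70, or 3.05-fold, but its mean level lay below the measured range, so background may limit this fold. RAB6B, a RAB of traffic from Golgi to ER, was at 7.15 and 8.48, 2.51-fold higher. RAB43, another Golgi RAB, was at 10.13 and 11.14. Its difference of 1.01 lay just past 2-fold and fell to between 0.89 and 0.99 under 75th percentile scaling, quantile normalization, loess and a pseudocount. RefSeq lists a read-through locus, ISY1-RAB43, over the same stretch, so the signal of RAB43 may include it.

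The remaining ER and Golgi RABs went both ways. RAB1A and RAB1B, which share the step from ER to Golgi, had opposite signs: RAB1A was at 15.68 and 16.35 (0.67), RAB1B at 14.81 and 14.38 (-0.43). RAB2A was at 12.42 and 13.25 (0.83) and its paralog RAB2B at 8.53 and 8.81 (0.28). RAB6A, the widely expressed paralog of RAB6B, was at 14.18 and 14.04 (-0.14). RAB6C, a copy derived from it, was at 8.84 and 8.68, and RAB6D, a close copy of RAB6C, at 8.84 and 8.98. Probes of such near-identical copies may share signal, so the values of RAB6C and RAB6D are uncertain. RAB33B, a Golgi RAB that binds the autophagy protein ATG16L1, differed by 0.60, and RAB19 by 0.86 at a mean level below the measured range. The lowest were RAB36 (7.33 and 6.41) and RAB34 (11.58 and 10.68), a related pair of Golgi RABs, at -0.92 and -0.90, just short of 2-fold. After loess on the mean level RAB34 was at -1.03 and thus past it.

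Early endosome RABs, which receive cargo from the plasma membrane, lay close to their control values. Of the 5 genes 0 reached 1.5-fold, where 18.6% of all named genes were higher and 16.6% lower by that size. The median difference was -0.08, or -0.21 after loess. RAB5A, RAB5B and RAB5C, the RABs that drive fusion of early endosomes, differed by -0.31 (13.41 to 13.10), -0.08 (12.31 to 12.23) and 0.19 (13.88 to 14.07). RAB21, which acts in integrin traffic, was at 14.15 and 13.65 (-0.50), and RAB22A at 11.80 and 11.88. All 5 lay in the measured range, where 23.2% of named genes were higher and 20.1% lower by 1.5-fold.

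**Figure D2:**
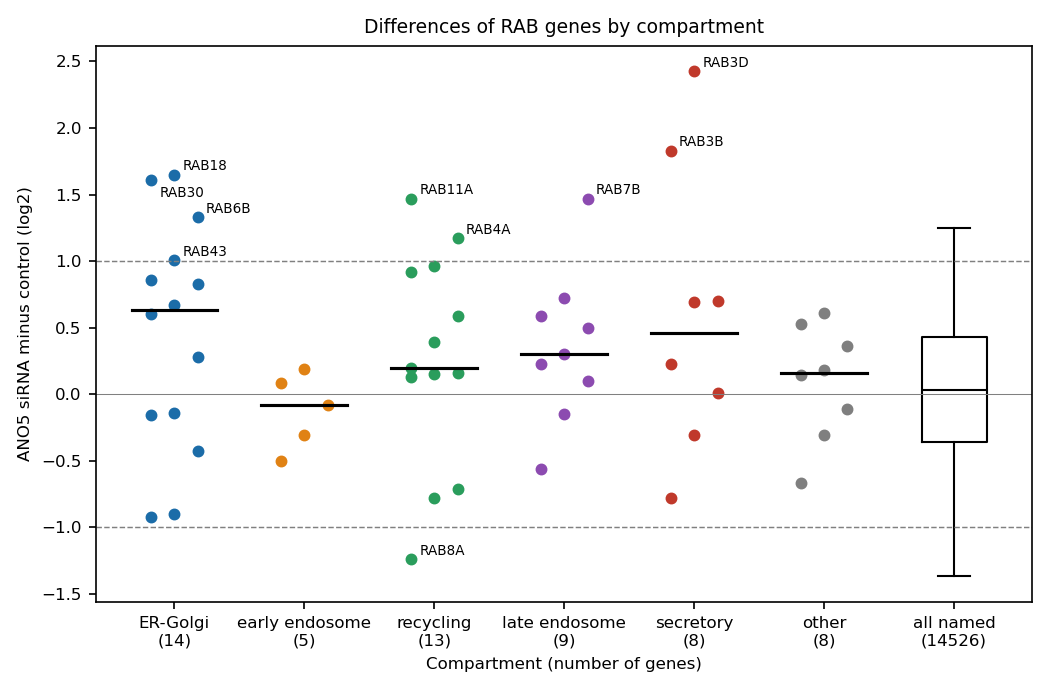
Difference between the arrays (ANO5 siRNA minus control, log2) of each RAB gene by compartment, with the number of genes in brackets and a bar at each median. The box at the right shows all 14526 named genes (box, 25th to 75th percentile; line, median; whiskers, 5th to 95th), and dashed lines mark 2-fold. The 5 early endosome RABs lie between -0.50 and 0.19, whereas the secretory group reaches 2.43.

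The recycling group, which returns cargo to the cell surface, held both directions. Of its 13 genes 2 (15.4%) were higher and 1 (7.69%) lower by 2-fold, beside 8.33% and 8.35% of all named genes. All 13 lay in the measured range, where 11.2% of named genes were higher and 11.3% lower. The median difference was 0.20, or 0.06 after loess. RAB11A, the RAB of the recycling endosome, was at 12.50 with control siRNA and 13.97 with ANO5 siRNA, 2.77-fold higher. Its paralog RAB11B was at 11.99 and 12.12 (0.13), and -0.0036 after loess. RAB25, the epithelial member of the RAB11 subfamily, was at 13.44 and 14.03 (0.59). RAB4A, a RAB of fast recycling, was at 10.21 and 11.38, 2.25-fold higher. The platform lists 1 transcript for this cluster that the RefSeq records used do not hold under RAB4A, and likewise 1 for RAB18. Such a transcript may belong to another gene or be absent from those records. Whether these clusters read more than the gene named is thus not known.

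RAB8A, which directs vesicles from the Golgi and recycling endosomes to the plasma membrane and the cilium, went the other way. Its signal was 14.39 with control siRNA and 13.15 with ANO5 siRNA, 2.36-fold lower, and 6.02% of named genes had as low a difference or a lower one. RAB8B, its paralog, was at 7.15 and 6.44 (-0.71), so both RAB8 genes were below their control values. RAB10 and RAB13, which are related to RAB8 and act in basolateral transport and at tight junctions, were above theirs, at 0.92 (14.23 to 15.15) and 0.39 (12.74 to 13.13). RAB12, which steers the transferrin receptor to degradation, was at 9.69 and 8.91 (-0.78). RAB15 was at 10.86 and 11.82, and with 0.96 it was the RAB gene just short of 2-fold higher. RAB14, RAB17 and RAB35, which act in recycling from endosomes, differed by 0.20, 0.15 and 0.16.

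Late endosome RABs had a median difference of 0.30 (0.55 over the 6 in the measured range, 0.19 with a pseudocount). By 2-fold 1 of these 9 genes (11.1%) was higher and 0 lower, beside 8.33% and 8.35% of all named genes. RAB7B, which acts between late endosomes and the Golgi, was at 5.66 with control siRNA and 7.13 with ANO5 siRNA, 2.77-fold higher. Its control value lay below the level of 6.05, so it enters the measured range through the knockdown value, and background may limit this fold. RAB7A, the RAB of fusion with lysosomes, was at 16.21 and 16.80 (0.59). RAB9A, which returns mannose 6-phosphate receptors to the Golgi, was at 9.10 and 9.82 (0.72). RAB29, known as a partner of the kinase LRRK2, was at 9.02 and 8.46 (-0.56). RAB32 and RAB38, the related pair of melanosomes and other lysosome-like organelles, differed by 0.50 and 0.10. RAB24, RAB39A and RAB9B lay below the measured range, with differences of -0.15, 0.30 and 0.23. Of the 8 RAB genes without a place in these compartments none reached 2-fold. RAB28, a RAB of cilia, was the lowest at -0.67 (7.86 to 7.19), and RAB20, of phagosomes, the highest at 0.61 (7.74 to 8.35). RAB23, which restrains hedgehog signalling, differed by -0.31, and RAB40B and RAB40C, adaptors of ubiquitin ligases, by 0.36 and 0.53. RAB42 (0.18) and RAB44 (-0.11) lay below the measured range.

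Of 11 sets of RAB genes with the same number, holding 27 genes, 4 had members of both signs: RAB1, RAB5, RAB6 and RAB27. In 5 sets the members lay at least 1 log2 unit apart, with 2.42 between RAB3D and RAB3A, 1.49 between RAB6B and RAB6C, 1.34 between RAB11A and RAB11B, 1.10 between RAB1A and RAB1B, and 1.01 between RAB27B and RAB27A. The RAB8, RAB9 and RAB40 pairs kept within 0.53, 0.49 and 0.17 of each other. Such counts were not made for sets of other named genes, whose differences had an SD of 0.82. They therefore do not show that RAB paralogs differ more or less than other genes. Signs of small differences depend on scaling, as with RAB11B, at 0.13 as deposited and -0.0036 after loess. Of the 10 RAB genes past 2-fold, RAB11A alone had a locus with no other gene over it in RefSeq. RAB3D, RAB6B and RAB8A overlap the protein-coding genes TSPAN16, SRPRB and HSH2D, and the others overlap antisense, small RNA, pseudogene, read-through or uncharacterised loci. Whether the probes keep these apart was not tested. Overlap was not confined to the genes past 2-fold. RAB genes within 2-fold had it too, such as RAB1A with CEP68 and RAB14 with GSN, while others such as RAB25 had none. The share of all named genes with an overlapping locus was not counted.

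**Figure D3:**
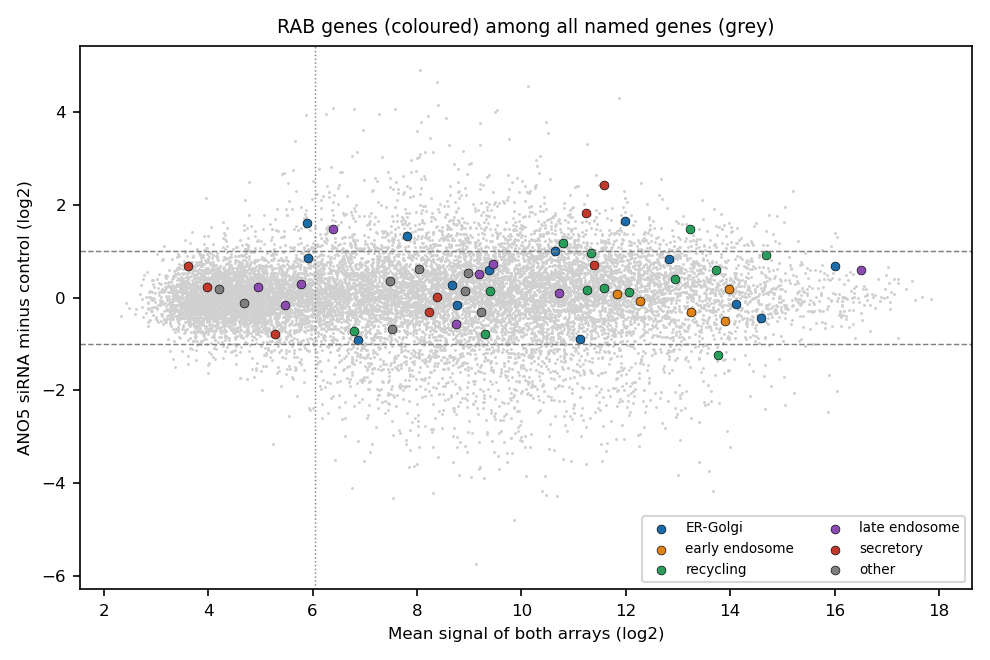
Difference between the arrays (ANO5 siRNA minus control, log2) against the mean signal of both arrays (log2), with RAB genes coloured by compartment and all named genes in grey. Dashed lines mark 2-fold and the dotted line the 33rd percentile of mean level, 6.05. Of the 9 RAB genes past 2-fold higher, RAB30 alone lies left of it.

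Genes that act on RAB proteins were counted in 4 lists. The lists hold 152 genes, of which 137 were in the table. By 2-fold, 23 were higher (16.8%) and 2 lower (1.46%), beside 8.33% and 8.35% of all named genes. Of the 137 genes 115 lay in the measured range, where 11.2% of named genes were higher and 11.3% lower. The shares of 16.8% and 1.46% are over all 137 genes. Of the partners past 2-fold, TBC1D2 alone lay below the measured range. For lipid attachment and membrane extraction of RABs, 0 of 6 genes reached 2-fold, and the median was 0.18 (0.069 after loess, and a mean of 0.038). The lowest was CHML, an escort protein for prenylation, at -0.88 (7.80 to 6.92), and GDI2, which extracts RABs from membranes, differed by 0.23.

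Exchange factors had a median of 0.33. By 2-fold, 8 of 51 (15.7%) were higher and 2 (3.92%) lower, beside 8.33% and 8.35% of all named genes. RIC1, which together with RGP1 activates RAB6, was at 7.19 and 9.34, a difference of 2.15, whereas RGP1, named here after its value was seen, was at 8.25 and 7.98. DENND1B, an activator of RAB35, was at 7.98 and 9.57 (1.59), and DENND4C, an activator of RAB10, at 8.47 and 9.97, 2.83-fold higher. MADD, which activates the RAB3 and RAB27 proteins, was at 8.80 and 10.22 (1.42). The lower genes were TRAPPC4, a core subunit of the TRAPP complexes that activate RAB1, at 11.43 and 9.69 (-1.74), and MON1B, part of the activator of RAB7, at 8.22 and 6.76 (-1.46). The complexes did not move as units. The TRAPP subunits TRAPPC6B, TRAPPC11 and TRAPPC10 were more than 2-fold higher (1.32, 1.26 and 1.25). The remaining TRAPP subunits lay between -0.07 (TRAPPC9) and 0.83 (TRAPPC8). CCZ1 and CCZ1B, the partners of MON1B, differed by 0.84 and 0.60, and MON1A by -0.32. Apart from TRAPPC4 and MON1B, the genes of these complexes were named after their values were seen.

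GTPase-activating proteins had a median of 0.41 (0.20 with a pseudocount, and a mean of 0.23) and went both ways. By 2-fold 6 of 34 (17.6%) were higher and 0 lower, beside 8.33% and 8.35% of all named genes. By 1.5-fold 13 (38.2%) were higher and 8 (23.5%) lower, beside 18.6% and 16.6%. TBC1D19 was at 8.10 and 9.64 (1.54), TBC1D7, also a subunit of the TSC complex, at 7.71 and 9.23 (1.52), and TBC1D22A at 8.20 and 9.56 (1.36). TBC1D2, which acts on RAB7, was at 4.32 and 5.79 (1.47), below the measured range. The lowest, named after their values were seen, were RABGAP1L at 10.69 and 9.77 (-0.92), TBC1D24 at 4.95 and 4.06 (-0.89), below the measured range, and TBC1D4 at 7.60 and 6.73 (-0.87). Whether every protein on this list, TBC1D24 included, has GTPase-activating activity on RABs was not checked.

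Effectors had a median of 0.38 (0.24 with a pseudocount), and 38 of 46 (82.6%) were above 0, beside 52.2% of all named genes. By 2-fold 9 of 46 (19.6%) were higher and 0 lower, beside 8.33% and 8.35%. SYTL5, which binds RAB27, had the highest difference, at 8.04 and 10.37 (2.33). OPTN, which binds RAB8, was at 8.33 and 10.18 (1.85), next to RAB8A at -1.24. RILP, the RAB7 effector that recruits dynein, was at 7.98 and 9.33 (1.35), and ZFYVE27, which binds RAB11, at 7.89 and 9.22 (1.33).

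**Figure D4:**
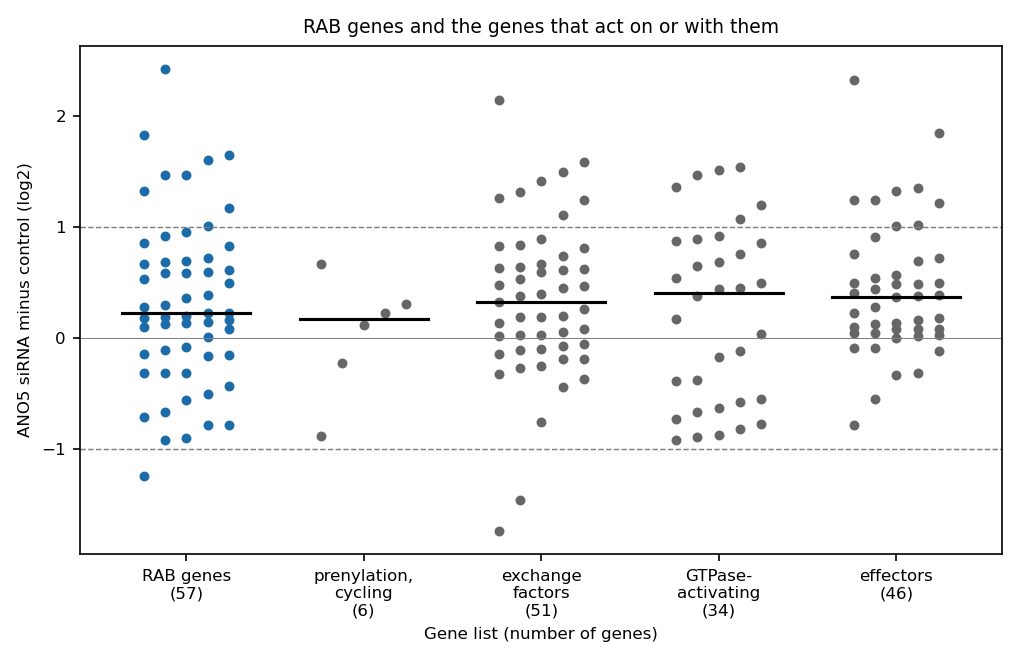
Difference between the arrays (ANO5 siRNA minus control, log2) of the 57 RAB genes and of the 137 measured or low-level genes in the 4 lists of genes that act on or with RAB proteins. Each point is a gene, bars are medians, numbers of genes are in brackets and dashed lines mark 2-fold. Effectors show 9 genes past 2-fold higher and none past 2-fold lower.

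Other genes of membrane traffic are given for scale. Of 13 ARF, ARL and SAR1 GTPases, which also act in membrane traffic, 2 (15.4%) were higher and 0 lower by 2-fold, and the median was 0.42. Of 45 VPS and CHMP genes of endosomal sorting 13 (28.9%) were higher and 0 lower, with a median of 0.72. Among all named genes 8.33% were higher and 8.35% lower. Of the 13 GTPases 12 lay in the measured range, and of the 45 VPS and CHMP genes 43. In that range 11.2% of named genes were higher and 11.3% lower. No test of the difference between families can be had from 1 array a group.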

How the data were processed

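Total RNA of 2 cultures, 1 for each group, was measured on expression arrays. The deposited table gives 1 value per array for 17345 transcript clusters. Values from 2.13 to 18.15 were deposited by the authors and are taken to be log2 signal, a log base inferred from their range. Agilent Feature Extraction 12.0.3.1 is the tool in the submitters' processing notes, although the cluster identifiers look like those of another maker. Probe summary, background correction, normalization and build: not given in the sources used here. The arrays' 75th percentiles differed by 0.02, so no scaling was added.

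Gene symbols came from the platform's annotation: 14544 clusters had 1 symbol, 0 had several and 2801 none. All 14526 genes matched RefSeq records by Entrez identifier, including all 57 RAB genes. For genes with more than 1 cluster the one with the highest mean was kept. No level filter was applied. RefSeq lists 6 other protein-coding RAB genes that fit the symbol rule (RAB4B, RAB31, RAB33A, RAB39B, RAB40A and RAB41), not analysed here.

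With 1 array a group no test was run. Genes were counted by a fixed size of 2-fold, and lists were described by counts and medians beside all named genes. Compartments, lists and members were chosen with earlier results of these data known. RAB6D, in no compartment list, was placed with the ungrouped genes. The families set beside the RAB genes were chosen after the values were seen, and 1 more is not reported here. Both values are given for RAB genes past 2-fold, their paralogs and those next to the threshold, and up to 4 partners each way past 2-fold per list are named, with exceptions marked in the text; other values of RAB genes are given by compartment. Counting and scaling were tested on simulated data. Alternatives were median centring, 75th percentile scaling, quantile normalization, loess (span 0.4), a pseudocount of 32 on the linear scale, the mean over clusters, filters at the 33rd and 50th percentiles of mean level, list means, 1.5-fold and 3-fold, and RAB8A, RAB8B, RAB10 and RAB13 counted as secretory. Python 3.11.15, numpy 2.4.6, pandas 2.3.3, statsmodels 0.14.6 and matplotlib 3.10.9 were used.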

Additional observations from a re-analysis of the deposited data

How the results depend on the processing

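The median RAB difference stayed between 0.19 and 0.24 under all alternatives that kept a median, and the list mean was 0.31. RAB43 alone among 20 RAB genes followed crossed 2-fold under a scaling or the pseudocount, and 96 of 100 such values kept their side. The 8 other genes past 2-fold higher, and RAB8A, kept their calls under each scaling. RAB genes higher numbered 21 at 1.5-fold and 4 at 3-fold, those lower 7 and 0, because the threshold itself changed, and loess gave 2 lower. Loess moved the early endosome, recycling, prenylation and effector medians to -0.21, 0.064, 0.069 and 0.27. The pseudocount moved the late endosome, secretory, GTPase-activating and effector medians to 0.19, 0.13, 0.20 and 0.24. The filter at the 33rd percentile, which leaves fewer genes, gave 0.44 for ER-Golgi, 0.55 for late endosome and 0.70 for secretory RABs. That at the 50th gave 0.44, 0.50 and 0.70, and 0.34 for ungrouped RABs, 0.47 for exchange factors, 0.54 for GTPase-activating proteins and 0.50 for effectors. List means were 0.45 for ER-Golgi, 0.60 for secretory RABs, 0.038 for prenylation and 0.23 for GTPase-activating proteins. With RAB8A, RAB8B, RAB10 and RAB13 as secretory that median was 0.31. A median was counted as moved past 0.1, and the cause of these moves was not tested beyond the alternatives' own construction. RAB genes have 1 cluster each, so the mean over clusters could not test them. No paired analysis was possible because each group holds 1 array. Signal over background is unknown, which limits folds from low values such as those of RAB30 and RAB7B.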

Other observations

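RAB-like genes outside the symbol rule were also in the table. RABL3 was at 9.70 with control siRNA and 5.37 with ANO5 siRNA (-4.33), lower than that of any of the 57 RAB genes. RABL2A and RABL2B, near-identical copies, were at 7.64 and 7.53 and at 8.47 and 8.22.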
